A study of Mus musculus with 6 samples.

Results

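Primitive red cell transcripts were examined through 9 genes in lens ectoderm that had been cut by laser from mouse embryos at embryonic day 9.5. They are the globin genes Hba-x, Hbb-y, Hbb-bh1, Hba-a1 and Hbb-b1, the heme enzyme gene Alas2, and the transcription factor genes Klf1, Gata1 and Tal1. Every probe whose platform symbol was one of these 9 was taken, which gave 8 probes for 7 genes, of 46632 probes in all and 17711 genes with a symbol of their own. Hbb-y and Hbb-b1 had no probe under those symbols in the annotation table used here. A probe was tested where its detection p-value was below 0.05 on at least 3 of the 6 arrays, as it was for 7 of the 8 probes, for 6 genes.

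The groups were 3 knockout arrays (KO 1 to KO 3), labelled BMPR KO, whose lens placode lacked type I receptors for BMPs (bone morphogenetic proteins), and 3 wild-type arrays (WT 1 to WT 3). The sample titles call the line of both groups ALK23, and all embryos were of a mixed C57BL6 and FVB background. The tissue label names prospective lens or retina. The comparison asks how gene expression in the placode differs once those receptors are gone. Frozen embryos had been cut at 10 microns, the ectoderm cut out by laser, and 15 ng of total RNA amplified for Illumina BeadChips, per the labels' protocols. Which Cre drove the deletion, which exons it removed and whether wild-type embryos carried it are not given in the sources used here. Since the series text speaks of pooled RNA, a p-value here covers only how far these samples vary, and part of that may be technical.

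At this stage the embryo's circulating red cells are primitive erythroid cells, large nucleated cells that arise in the yolk sac and are carried through the vessels of the head. Their haemoglobin pairs alpha-like chains (the embryonic zeta chain of Hba-x and the adult alpha chain of Hba-a1) with beta-like chains (the embryonic chains of Hbb-bh1 and Hbb-y, and small amounts of adult beta). The genes of each kind sit beside each other in a cluster, where GATA1, TAL1 and KLF1 bind promoters and distant enhancers, and ALAS2 makes the first intermediate of heme in the erythroid lineage. Lens ectoderm is an epithelium without vessels of its own, while the mesenchyme around the optic vesicle is vascular.

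Per RefSeq the alpha-like genes lie on chromosome 11, the beta-like genes on 7, Klf1 on 8, Tal1 on 4, and Alas2 and Gata1 on X. Of the tested members Tal1 varied most within a genotype (SD 1.095, against 0.59 for Hba-a1), and its promoters are not shown here. Promoters are shown for Hba-x, Hba-a1, Alas2 and Klf1, the last being the member whose genotypes did not overlap. Each is the 250 bases before the start of transcription, from RefSeq on GRCm38.p6, with capitals at matches to AGATAA or TGATAA (the core bound by GATA factors), CACCC (bound by KLF1) and CCAAT, searched on both strands, and TATAA, searched on the gene's strand. No match overlapped another in these windows.
Hba-x: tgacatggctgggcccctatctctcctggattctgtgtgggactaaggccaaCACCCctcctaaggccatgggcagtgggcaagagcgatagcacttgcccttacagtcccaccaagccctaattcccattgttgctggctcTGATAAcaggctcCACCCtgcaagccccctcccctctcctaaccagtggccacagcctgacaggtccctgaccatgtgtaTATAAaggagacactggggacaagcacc
Hba-a1: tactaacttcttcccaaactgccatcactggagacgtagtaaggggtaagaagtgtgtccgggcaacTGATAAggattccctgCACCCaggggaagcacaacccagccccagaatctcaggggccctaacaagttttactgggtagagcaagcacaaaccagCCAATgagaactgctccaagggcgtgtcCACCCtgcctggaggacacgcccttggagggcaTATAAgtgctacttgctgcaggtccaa
Alas2: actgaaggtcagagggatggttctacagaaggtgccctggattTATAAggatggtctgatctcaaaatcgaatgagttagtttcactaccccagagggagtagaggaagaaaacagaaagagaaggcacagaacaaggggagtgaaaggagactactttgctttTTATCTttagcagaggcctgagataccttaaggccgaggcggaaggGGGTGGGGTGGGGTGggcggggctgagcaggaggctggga
Klf1: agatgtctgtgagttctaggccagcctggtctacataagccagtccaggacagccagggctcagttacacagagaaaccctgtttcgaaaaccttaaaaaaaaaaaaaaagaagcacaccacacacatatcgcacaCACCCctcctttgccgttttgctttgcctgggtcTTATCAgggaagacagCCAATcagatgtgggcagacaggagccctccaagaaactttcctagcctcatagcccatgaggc
These lie at chr11:32276350-32276599, chr11:32283422-32283671, chrX:150547167-150547416 and chr8:84901732-84901981, all on the plus strand. Of the 9 genes, 7 had a promoter in the table, Tal1 with 2 start sites, which made 8 windows. The GATA core was found in 6 of the 8 windows and CACCC in 7, against 16.6% and 52.0% of all 32851 promoter windows of that length. Both were present in 6 of the 8, against 7.1%, and the Hba-x, Hba-a1 and Alas2 windows also held TATAA, a combination found in 1.4% of all windows. The TATAA lay at -28 to -24 in Hba-x and at -27 to -23 in Hba-a1, but farther upstream, at -207 to -203, in Alas2. CCAAT was present in 33.8% of all windows and TATAA in 5255 of them. The Hba-x window had its GATA core at -108 to -103 and its nearer CACCC at -95 to -91, and the Klf1 window had CACCC at -114 to -110 and the GATA core at -80 to -75. A match of letters is a description and not a bound site.

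Across the 46632 probes, between 39.6% (WT 2) and 45.7% (KO 1) were detected per array, and median raw intensity lay between 74.5 (WT 2) and 90.7 (WT 1). WT 1 and WT 2 were the arrays least like the others, with mean correlations of 0.881 and 0.870, against 0.907 to 0.916 for the other 4 arrays, over 13819 probes detected on all 6. Of 16 lens ectoderm markers, 11 were measured and all 11 were detected on every array, while Foxe3, Pitx3, Cryaa and Sox1 were below the filter. Values below are background-corrected, quantile-normalized log2 intensities, and a fold change is KO minus WT on that scale. A level is compared only between arrays of the same probe. The member probes were read by 24 to 48 beads per array, and the standard error over beads was 2.58% to 6.28% of the raw intensity.

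The 3 measured globins, each by its brightest probe, were bright in every piece of both genotypes. They differed more between pieces of one genotype than between the genotypes. The dimmer Hbb-bh1 probe was not detected on WT 3. None of the 7 tested probes passed the test between KO and WT (0 of 7 at a limma adjusted p below 0.05), as was the case for 0% of all 20959 tested probes. At an unadjusted limma p below 0.05 there was 1 of the 7, the Klf1 probe, lower in KO, which passed the detection filter only through its WT arrays and is given here as a description, against 4.49% of all tested probes in either direction (941) and 1.6% in that direction (335). Arrays of the genotypes did not overlap for 1 of the 7, Klf1 again, against 9.82% of all tested probes, and no member lay with every KO array above every WT array, as 5.38% of all did. The mean was lower in KO for 6 of the 7 probes, against 49.1% of all. The 7 probes share the same arrays and are not independent. The sign turned for Hba-x, Alas2 and both Hbb-bh1 probes when single arrays were left out. Over 1 probe per gene, the median log2 fold change of the 6 measured genes was -0.37 (-0.34 over those detected on all 6 arrays, which leaves out Klf1), with -0.0064 over all 10099 measured genes, and it was -0.13 for the 3 globins. Single arrays moved the median of the 6 genes by over 1.5 times, to -0.85 without KO 1, -0.13 without KO 2, -0.14 without KO 3, -0.20 without WT 1, -0.20 without WT 2 and -0.74 without WT 3. In dissected tissue, fewer red cells and less RNA per red cell cannot be told apart.

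**Figure D1:**
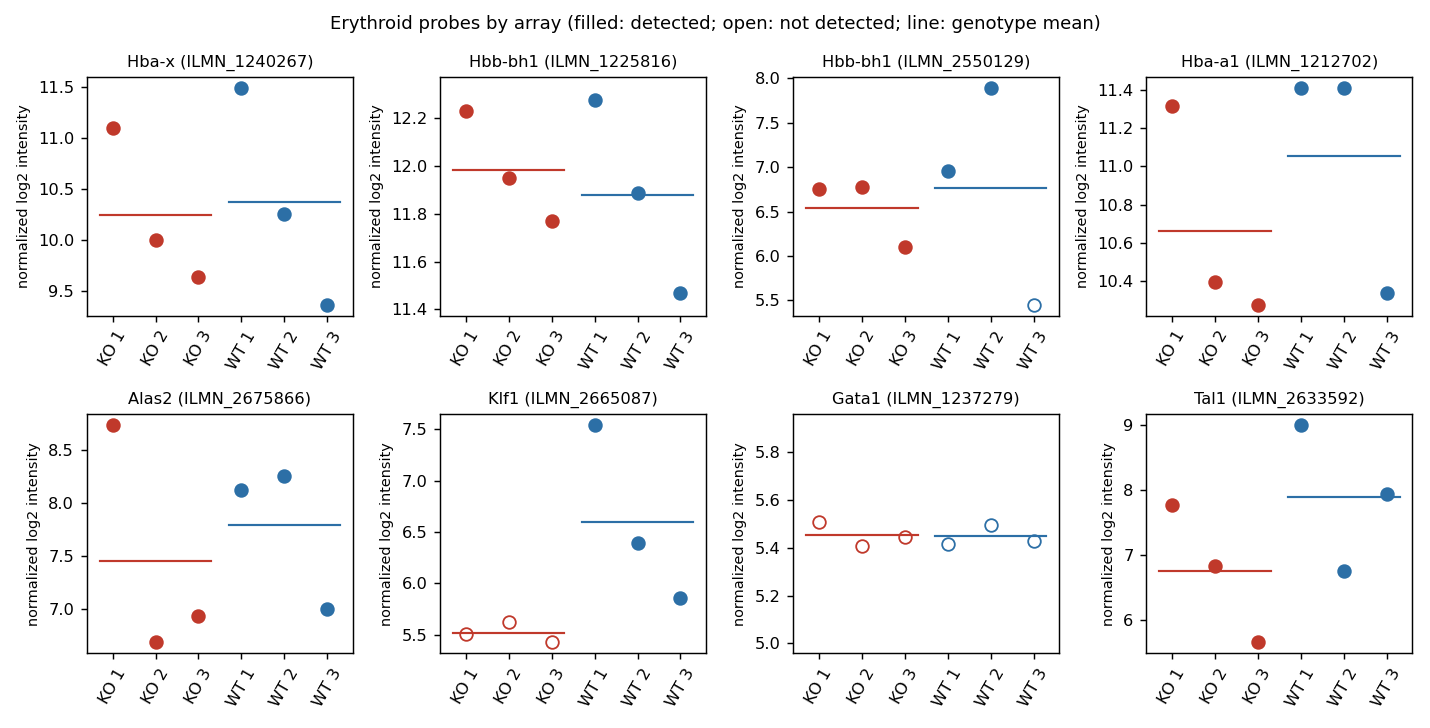
Normalized log2 intensity (vertical axis, a separate scale in each panel) of the 8 probes on the 3 KO arrays (red) and the 3 WT arrays (blue), with a line at each genotype's mean and open circles where the probe was not detected. For Hba-x the arrays ran from 9.37 to 11.49 with both genotypes spread over most of that range, whereas the Klf1 probe was open on all 3 KO arrays.

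Among the alpha-like globins, Hba-x, which encodes the embryonic zeta chain, had raw intensities of 2199, 1053 and 998 on KO 1 to KO 3, and of 3115, 1098 and 675 on WT 1 to WT 3. On the normalized log2 scale these were 11.09, 10.00 and 9.64 in KO, and 11.49, 10.26 and 9.37 in WT. One array of each genotype was thus high, and the lowest value of all was a WT array. KO 1 exceeded KO 3 by 2.75-fold and WT 1 exceeded WT 3 by 4.35-fold, both far beyond the bead error. The genotypes averaged 10.24 ± 0.76 in KO and 10.37 ± 1.07 in WT (SD, n = 3 each), a log2 fold change of -0.13 ± 0.54 (SE) whose 95% interval ran from -1.35 to 1.09 (adjusted p = 0.995 by limma). That interval covers a 2-fold change in either direction, and the sign turned without KO 3 (0.18) or WT 1 (0.43).

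Hba-a1, which encodes the adult alpha chain made by primitive and definitive red cells alike, had log2 intensities of 11.31, 10.40 and 10.28 in KO, and of 11.41, 11.41 and 10.34 in WT. KO 1 stood with WT 1 and WT 2, and the other KO arrays with WT 3, so the genotypes overlapped. The means were 10.66 ± 0.57 in KO and 11.05 ± 0.62 in WT, a log2 fold change of -0.39 (interval -1.19 to 0.41, limma adjusted p = 0.989). The near-identical copy Hba-a2 had no probe under its own symbol, so the signal may hold both genes. With 1 array left out the fold change ran from -0.75 (without WT 3) to -0.20 (without KO 3). WT 2 differed from WT 1 by -0.0021 for Hba-a1 and by -1.23 for Hba-x, so the alpha-like transcripts did not vary in parallel within the wild type.

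Hbb-bh1, which encodes an embryonic beta-like chain, was followed by 2 probes. The brighter, ILMN_1225816, had log2 intensities of 12.23, 11.95 and 11.77 in KO, and of 12.28, 11.89 and 11.47 in WT. Its arrays kept nearly the order of Hba-x over a narrower range, 1.75-fold from highest to lowest. The means were 11.98 ± 0.23 in KO and 11.88 ± 0.41 in WT, a log2 fold change of 0.11 (interval -0.37 to 0.58, limma adjusted p = 0.990), and both ends lay within a 2-fold change of this signal. The sign turned without KO 1 (-0.018) or WT 3 (-0.10). The dimmer, ILMN_2550129, had 6.76, 6.78 and 6.10 in KO, and 6.96, 7.89 and 5.45 in WT, where WT 3 was not detected. Its log2 fold change was -0.22 (interval -1.66 to 1.22, limma adjusted p = 0.993), with the other sign without KO 3 (0.0034) or WT 2 (0.34). The 2 probes of this gene therefore placed WT 2 differently, at the top for the dimmer probe and in the middle for the brighter one.

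Of the 4 globin probes, only the brighter Hbb-bh1 probe had an interval within a 2-fold change in both directions in the fit without a block. The spread between arrays of one genotype set the width of the others in that fit. With the replicate number as a block, Hba-x (-0.57 to 0.32) and Hba-a1 (-0.88 to 0.098) also had intervals within a 2-fold change. Whether same-numbered samples share more than a number is not settled, so these narrower intervals rest on an assumed pairing. Pooled over the genotypes, the within-genotype SD was 0.93 for Hba-x, 0.59 for Hba-a1, 0.33 for the brighter Hbb-bh1 probe and 0.91 for the dimmer, beside a median of 0.38 over the 13819 probes detected on all arrays. For Hba-x, 94.6% of those probes had a smaller SD.

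Alas2, the erythroid form of 5-aminolevulinate synthase, had log2 intensities of 8.73, 6.68 and 6.93 in KO, and of 8.12, 8.26 and 6.998 in WT. KO 1 was the highest array and KO 2 the lowest, 4.13-fold apart, and the genotypes overlapped. The means were 7.45 ± 1.12 in KO and 7.79 ± 0.69 in WT, a log2 fold change of -0.34 (interval -1.78 to 1.09, limma adjusted p = 0.989), which was -0.98 without KO 1 and 0.039 without KO 2. Its Pearson correlation with Hba-a1 over the 6 arrays was 0.94, a description of arrays that share their processing. Alas2 lies on the X chromosome, and Xist, the X-inactivation transcript, was at 6.15, 5.59 and 11.0045 in KO, and at 11.25, 11.20 and 6.43 in WT, so it differed within each genotype and its part in the Alas2 values was not tested.

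Klf1, an erythroid zinc finger activator of the globin genes, was the member with a difference in detection. Its log2 intensities were 5.51, 5.62 and 5.43 in KO, and 7.54, 6.39 and 5.86 in WT. The probe was detected on all 3 WT arrays and on 0 KO arrays, with detection p-values of 0.0929, 0.0661 and 0.150 in KO, and of 0.00561, 0.0256 and 0.0324 in WT, so WT 2 and WT 3 were not far past the threshold. Every KO array lay below every WT array, which held for 4.44% of all tested probes (931), and detection on 3 WT and 0 KO arrays held for 0.162% (34). Over these arrays the mean Klf1 signal was at least 1.91-fold lower in KO. This sets a KO mean of 5.66, with each array at its detection floor (5.52 as measured), against a WT mean of 6.597. It allows for the floor only and is no lower bound on the difference between genotypes. The fitted difference was -1.08 and its interval -2.04 to -0.12 (adjusted p = 0.989 by limma), and it was -0.61 without WT 1, the brightest array. The difference did not pass over all probes, and the probe passed the detection filter only through its WT arrays, so these values are a description.

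Tal1, a helix-loop-helix factor of blood and endothelial precursors, was detected on every array. Its log2 intensities were 7.77, 6.82 and 5.65 in KO, and 9.0002, 6.75 and 7.93 in WT. The KO 3 value lay just past detection, at a detection p-value of 0.0499, and WT 2 fell below KO 1 and KO 2, so the genotypes overlapped. The means were 6.75 ± 1.06 in KO and 7.89 ± 1.13 in WT, a log2 fold change of -1.15 (interval -2.79 to 0.50, limma adjusted p = 0.989). Without WT 1 it was -0.59 and without WT 2 it was -1.72. Gata1, the central transcription factor of red cells, was detected on 0 of 6 arrays, at 5.41 to 5.51 in KO and 5.42 to 5.50 in WT, and was not tested. A probe at the floor gives only an upper bound on its signal.

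The adult beta-globin genes were followed by 11 probes that the annotation gives to Hbb-bs, Hbb-bt and Hbb-b2, of which 10 were tested. These genes are near-identical in sequence, so a probe cannot be held to report 1 of them alone. The 10 probes fell into unlike patterns, sorted here after their values were seen. For 6 of them (4 of Hbb-bt, 1 of Hbb-bs and the Hbb-b2 probe) the Pearson correlation with the mean of the member globins over the 6 arrays was 0.90 to 0.99. All 6 were lowest on WT 3 and differed by 8.68-fold to 16.03-fold between their highest and lowest arrays. The other 4 had correlations of -0.088 to 0.38. Among them, Hbb-bs ILMN_1255462 and ILMN_1229203 and Hbb-bt ILMN_1239117 varied by only 1.98-fold to 2.03-fold and were highest on KO 1, and Hbb-bs ILMN_1223244 was highest on WT 2. These correlations rest on 6 points that share array and normalization.

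Within the first 6 probes the wild type split in the same way as the alpha-like genes. For Hbb-b2, Hbb-bs ILMN_1244316 and Hbb-bt ILMN_1235372 the difference of WT 2 from WT 1 was -1.27, -0.90 and -1.19, near the -1.23 of Hba-x. For Hbb-bt ILMN_1236718, ILMN_1227838 and ILMN_1216452 it was -0.16, -0.15 and 0.29, near the value of Hba-a1. Probes assigned to a single gene, Hbb-bt, thus occurred in both sets.

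**Figure D2:**
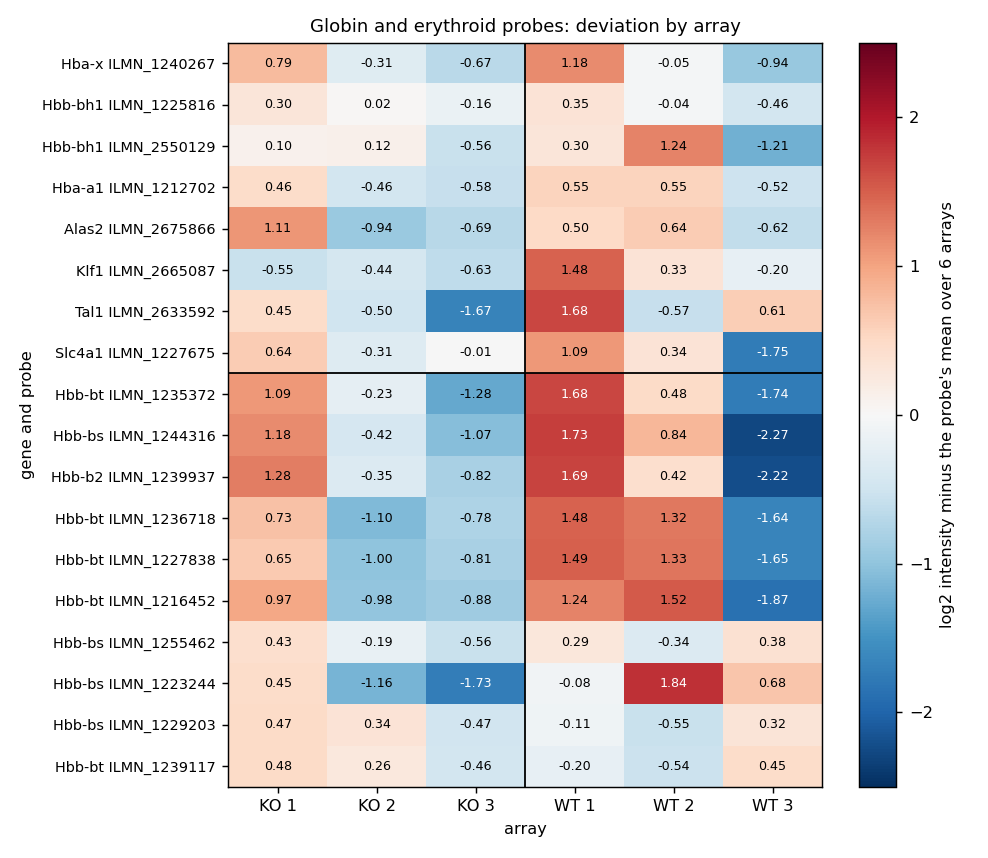
Deviation of each probe's log2 intensity from its own mean over the 6 arrays (colour and printed value), for the 7 tested probes of the set and Slc4a1 above the horizontal line and the 10 tested adult beta-globin probes below it, with KO arrays left and WT arrays right of the vertical line. KO 1 and WT 1 are above the mean and KO 3 and WT 3 below it for Hba-x, Hba-a1 and the first 6 adult beta-globin probes, and the last 4 depart from that pattern.

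Between the genotypes, the log2 fold changes of the 6 parallel adult beta-globin probes ran from -0.78 to 0.076, and none passed. Hbb-bs ILMN_1223244, the probe that represents Hbb-bs here, had 10.64, 9.02 and 8.46 in KO, and 10.10, 12.02 and 10.87 in WT. Only KO 1 reached into the WT range. Its log2 fold change was -1.62 (interval -3.005 to -0.24, limma adjusted p = 0.989), while the 3 other tested Hbb-bs probes had -0.22 to 0.23. It was -1.11 without WT 2 and -2.26 without KO 1. Hbb-bt, by ILMN_1239117, had 0.19 (interval -0.57 to 0.95), which was -0.0057 without KO 1 and -0.034 without WT 2. Hbb-b2 had 0.076 (interval -2.07 to 2.22), -0.54 without KO 1 and -1.02 without WT 3. The theta-like genes Hbq1a and Hbq1b were detected on no array.

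None of the measured genes in the other erythroid lists passed the test. Of the 8 heme synthesis genes other than Alas2, 6 were measured, 4 with a lower and 2 with a higher mean in KO, with a median log2 fold change of -0.18. Fech, the ferrochelatase that inserts iron, had -0.73 (interval -1.61 to 0.15), with 0.16 and -0.0029 from its other tested probes. Urod, a decarboxylase of the pathway, had 9.88, 10.00 and 9.80 in KO, and 10.18, 10.18 and 10.11 in WT. The Urod arrays did not overlap, and the log2 fold change was -0.26 (interval -0.62 to 0.09, adjusted p = 0.989). Ppox, the oxidase before ferrochelatase, had 9.53, 9.13 and 9.064 in KO, and 9.01, 9.062 and 9.05 in WT. The Ppox arrays did not overlap either, by a narrow margin and in the opposite direction, with a log2 fold change of 0.20 (interval -0.31 to 0.71, adjusted p = 0.989). Non-overlap in either direction held for 9.82% of all tested probes. Cpox, the next enzyme after Urod, had 0.22 (interval -0.59 to 1.03, 0.087 without WT 3 and 0.44 without WT 2), and 0.63 from its other tested probe. These enzymes act in all cells.

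Of 27 genes of the red cell membrane, receptors and iron import, 10 were measured, 4 lower and 6 higher in KO, with a median of 0.093, and 0 passed. Sptb, which encodes erythroid beta-spectrin, had -1.17 (interval -2.85 to 0.52, -1.90 without WT 2 and -0.32 without WT 1, where it was brightest at 8.77). Car2, a carbonic anhydrase, had -0.70 (interval -2.75 to 1.35, -0.094 without WT 1 and -1.60 without WT 2), and -0.29 from its other tested probe. Tfrc, the transferrin receptor, had 0.42 (interval -0.08 to 0.92, 0.21 without WT 1 and 0.64 without WT 3). Slc4a1, the band 3 anion exchanger of the red cell membrane, had 9.23, 8.28 and 8.59 in KO, and 9.68, 8.94 and 6.85 in WT. KO 1 and WT 1 were the highest of their genotypes and WT 3 the lowest array. Ank1, Rhd and Slc25a37 had the same pattern but were not detected on WT 3. The other measured genes of this list went other ways. Tfrc was lowest on WT 1, and Gypc, Car2 and Slc25a38 on WT 2, while Sptb was lowest on KO 3 and Blvrb on KO 2. Epor, Epb42, Rhag, Kel and Hemgn were among 12 genes below the filter. Of 20 other erythroid and haematopoietic transcription factor genes, 12 were measured, 9 lower and 3 higher in KO, with a median of -0.27, and 0 passed. Bcl11a, a repressor of embryonic globins, had -1.49 (interval -3.62 to 0.63, -2.64 without KO 1 and -0.86 without KO 3, and -0.036 from its other tested probe). Lmo2, a bridging partner of TAL1, had -0.61 (interval -2.68 to 1.47, -1.33 without WT 2 and 0.34 without KO 2), and E2f2, a cell cycle regulator of late erythroblasts, -0.60 (interval -1.23 to 0.02, and -0.39 without WT 2). Many of these factors also act outside blood.

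**Figure D3:**
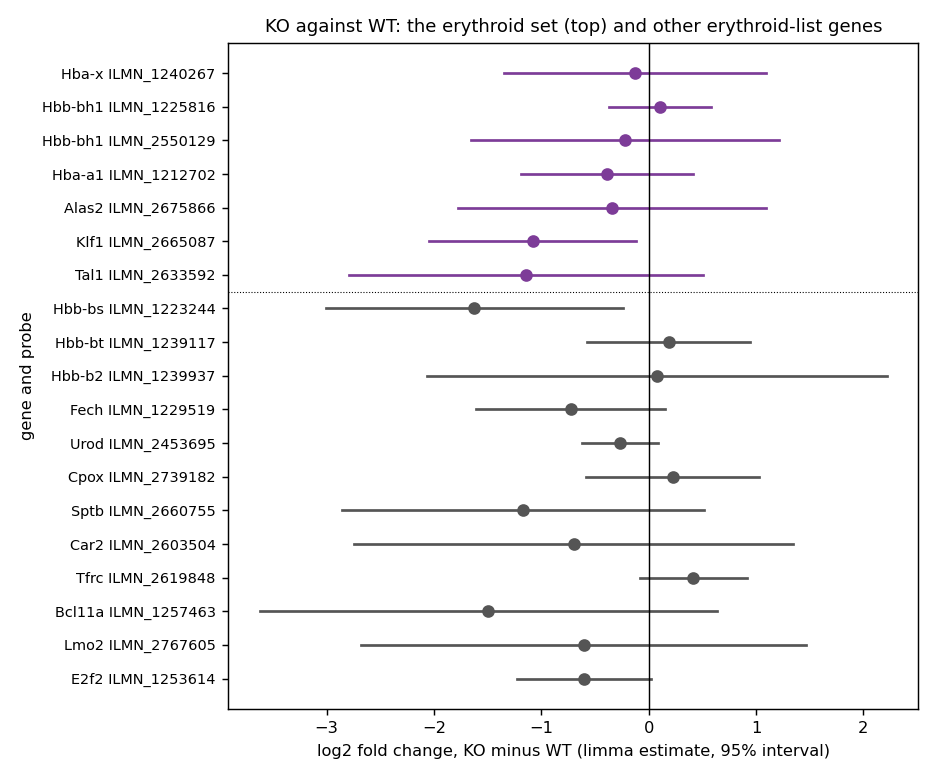
Log2 fold change, KO minus WT, with the 95% interval of the limma fit, for the 7 tested probes of the set (purple, above the dotted line) and the genes of the other erythroid lists named by the rule (grey). Only the Klf1 and Hbb-bs ILMN_1223244 intervals leave out 0, from -2.04 to -0.12 and from -3.005 to -0.24, and neither passed after adjustment over 20959 probes. The Klf1 probe passed the detection filter only through its WT arrays, so its interval is a description.

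The level of the globins in a piece was set beside that of other tissues. As deviations from the mean over arrays, the 3 measured globins averaged 0.51, -0.25 and -0.47 in KO, and 0.69, 0.15 and -0.64 in WT. The 9 measured endothelial markers of 14 averaged 0.91, -0.32 and -0.44 in KO, and 0.69, -0.94 and 0.09 in WT. These 3 globins and the endothelial markers were thus both highest on KO 1 and WT 1, which did not hold for every list of blood genes. WT 2 had the lowest endothelial level with a globin level above the mean. Only 2 of the 9 endothelial genes were detected on WT 2, against 6 to 8 on each other array. The WT 2 level therefore rests mostly on values near the floor. Cdh5, Tek, Tie1, Eng and Etv2 were below the filter. Over arrays the endothelial level ran from 6.39 to 7.73 in KO and from 5.89 to 7.51 in WT.

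The 9 measured mesenchyme and neural crest markers of 15 deviated by 0.32, -0.49 and -0.40 in KO, and by 0.51, -0.44 and 0.50 in WT. The 10 measured optic vesicle and retina markers of 15 deviated by 0.09, -0.69 and 0.06 in KO, and by 0.43, -0.95 and 1.05 in WT. Of these 10, 5 were detected on WT 2, against 8 to 10 on each other array. WT 3, the array lowest in globins, was therefore the highest in optic vesicle markers and high in mesenchyme markers. The 11 lens ectoderm markers deviated by -0.62, 0.43 and 0.38 in KO, and by -0.61, 0.67 and -0.24 in WT, so the pieces highest in globins, KO 1 and WT 1, were the lowest in lens ectoderm markers. The 11 were Pax6, Sox2, Six3, Maf, Prox1, Cryab, Cdh1, Epcam, Krt8, Krt18 and Tfap2a, of which Six3 was also an optic vesicle marker here. The part of any of these tissues in the globin values was not tested.

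**Figure D4:**
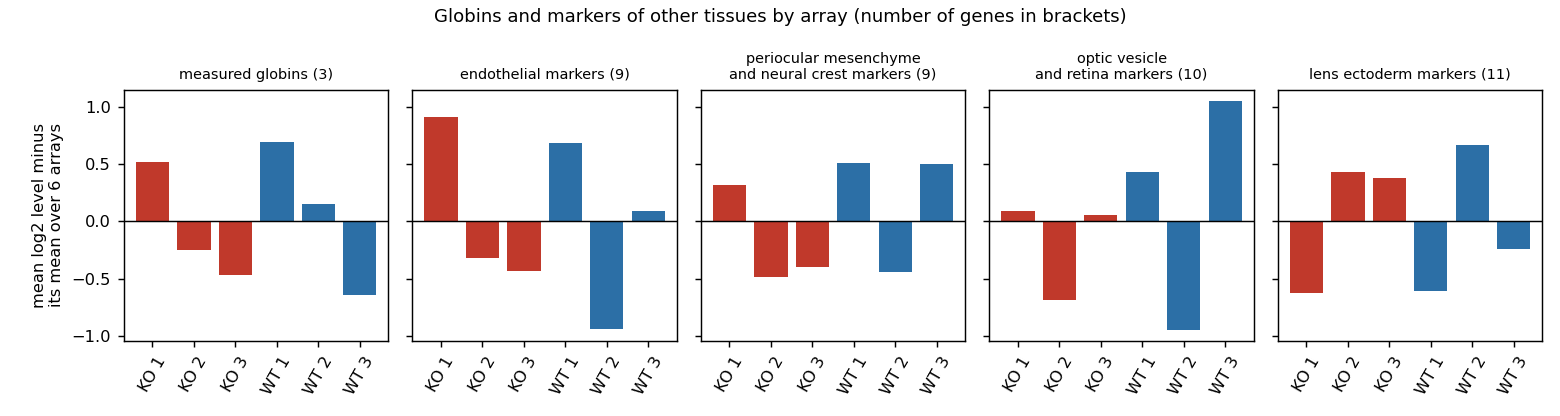
Mean log2 level of each marker list on each array minus its mean over the 6 arrays (bars, KO in red and WT in blue), for the 3 measured globins and for 9 endothelial, 9 mesenchyme, 10 optic vesicle and 11 lens ectoderm genes. KO 1 and WT 1 are high in globins (0.51 and 0.69) and endothelial markers (0.91 and 0.69) and low in lens ectoderm markers, and WT 3 is low in globins (-0.64) and high in optic vesicle markers (1.05).

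The genes whose arrays most resembled the globin mean were sought among 7408 genes detected on all 6 arrays, each by its probe with the highest mean. The 5 with the highest Pearson correlation were Rbmxl1 (0.98), Hbb-b2 (0.97), Armc8 (0.97), Cenpk (0.96) and Rictor (0.96), and 10 genes reached 0.95. For Hba-x alone, which had the largest SD over arrays of the 3 probes that represent the measured member globins, they were Rictor (0.99), Igf2bp3 (0.98), Cdv3 (0.98), Tfap2b (0.97) and Zfp346 (0.96). Hbb-bt ILMN_1235372 (0.99) and Hbb-bs ILMN_1244316 (0.97) were as close to the globin mean but were outside this search, since other probes represented those genes. With 6 arrays such values are a description of the arrays only.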

How the data were processed

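The 6 samples were 3 KO and 3 WT arrays of laser-dissected lens ectoderm, grouped by sample title. Per the file headers, the deposited non-normalized table holds 4 columns an array: mean bead intensity on a linear scale, detection p-value, bead number and bead standard error. GenomeStudio is named, per the submitters' processing notes, without version; build and further steps are not given in the sources used here. A second deposited table of processed intensity, linear and with values below 0, served as an alternative.

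Background was removed with normexp, whose control levels came from the detection p-values, and after an offset of 16 intensities were quantile normalized and taken to log2 (neqc steps in limma 3.58.1, R 4.3.3). This compresses differences of dim probes. The 20959 tested probes were fitted with lmFit and eBayes with a variance trend, without covariates, two-sided, with Benjamini-Hochberg adjustment over all of them at 0.05. Of all probes, 29976 carried 1 symbol, 10 several and 16646 none. The number of arrays limits the precision. With 1 slide for all arrays there was no slide batch to test; the scan day was not used here.

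The members and gene lists were chosen with earlier results of these data known. The rule named every member probe, the 2 measured genes of each other list with the largest absolute fold change (3 for the erythroid lists) and the genes most correlated with the globins. Slc4a1, and the genes set beside it outside the rule, were named after their values were seen, as were the adult beta-globin groups and Xist. Ppox, whose arrays like those of Urod did not overlap, was also named outside the rule. A gene was represented by its brightest tested probe. The fit was tested on simulated data. Background correction, normalization, filter, array weights, replicate block and leaving out each array were tried as alternatives.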

Additional observations from a re-analysis of the deposited data

How the results depend on the processing

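None of the 7 tested erythroid probes, and none of all probes, passed an adjusted p of 0.05 under any of the 15 other settings tried (limma). The lowest adjusted p over all probes was 0.258, without WT 2. At an unadjusted p below 0.05, 579 (without KO 3) to 1961 (no detection filter) probes were found, against 941. Without normalization between arrays the split of these was 120 lower in KO of 1229, against 335 of 941, since that setting moved the median of all probes by 0.17. For the 7 erythroid probes, 92 of 103 values kept their direction, and for the 24 named genes of other lists 334 of 351 did; Hba-a1 and Tal1 kept theirs under all 15 settings and Klf1 under the 14 in which it was tested. Hba-x turned to 0.012 without normalization (below the 0.17 of all probes there) and 2.1e-05 with array weights, and ranged from -0.63 to 0.43 with 1 array left out. The dimmer Hbb-bh1 probe turned to 0.057 in the deposited processed values and 0.16 with array weights, with a leave-one-out range of -0.88 to 0.34; the brighter ranged from -0.10 to 0.31 and Alas2 from -0.98 to 0.039. Among other genes, Hbb-bt turned to -0.13 and Itgb3 to -0.58 with array weights, Hbb-b2 to -0.0056 with an offset of 50 and -0.036 without background correction, and Mrc1 to -0.29 in the deposited processed values. Leave-one-out ranges that crossed 0 were -0.034 to 0.46 (Hbb-bt), -1.02 to 0.94 (Hbb-b2), -1.33 to 0.34 (Lmo2), -0.50 to 1.06 (Itgb3), -0.16 to 0.89 (Mrc1), -0.64 to 0.93 (Laptm5) and -0.078 to 0.90 (Sox2). The cause of these turns was not tested. Deviations of same-numbered KO and WT samples correlated at 0.106, 0.136 and -0.0076 over all tested probes. Such values cannot settle whether same-numbered samples share more than a number for a given gene. With the replicate number as a block, 0 probes passed and 986 had an unadjusted p below 0.05, and the median of the members stayed at -0.37. Under that block the intervals were -0.57 to 0.32 for Hba-x and -0.88 to 0.098 for Hba-a1. For Hbb-bh1 they were -0.17 to 0.38 by the brighter probe and -1.40 to 0.96 by the dimmer. The median of the 6 measured genes ran from -0.85 to -0.13 with 1 array left out and from -0.38 to -0.22 under the other settings. Gata1 was at the detection floor, and for Klf1 the floor limits what can be said of KO.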

Other observations

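Markers of other blood cells were sparse. Of 10 megakaryocyte and platelet genes, 2 were measured, while Pf4, Itga2b and Gp9 were below the filter. Gp1bb, a platelet receptor subunit, had log2 intensities of 5.79, 5.42 and 5.42 in KO, and of 6.35, 7.35 and 6.48 in WT, with no overlap of the arrays. Every KO array was below every WT array, as for 4.44% of all tested probes. The Gp1bb probe was detected on 1 KO array and 3 WT arrays. Its log2 fold change was -1.18 (interval -1.99 to -0.38, limma adjusted p = 0.989), and its other tested probe gave -0.055. Itgb3, a platelet and endothelial integrin, had 0.19 (interval -1.78 to 2.16). Of 12 macrophage and leukocyte genes, 5 were measured, with a median log2 fold change of 0.021, and Ptprc, Cx3cr1, Itgam and Adgre1 were below the filter. Mrc1, a macrophage receptor, had 0.43 (interval -0.68 to 1.55), and Laptm5, a leukocyte lysosomal protein, 0.17 (interval -1.46 to 1.80).

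Of the endothelial markers, Sox17, an arterial and endoderm factor, was detected on 3 KO and 0 WT arrays, at 5.96, 7.38 and 5.999 in KO, and 5.57, 5.09 and 5.65 in WT with the arrays not overlapping. Every KO array was above every WT array, as for 5.38% of all tested probes. Sox17 passed the detection filter only through its KO arrays. Over these arrays its mean was at least 1.61-fold higher in KO. This sets a KO mean of 6.45 against a WT mean of 5.76 with each WT array at its detection floor (5.44 as measured, limma adjusted p = 0.989). It allows for the floor only and is no lower bound on the difference between genotypes. The fitted difference was 1.01 on the log2 scale and 0.54 without KO 2, its brightest array. Emcn, an endothelial sialomucin, had -0.84 (interval -2.59 to 0.90, -1.54 without KO 1 and -0.21 without KO 2), and its other tested probe gave -0.22. In each neighbouring tissue list the 2 genes with the largest absolute log2 fold change are given, and none passed. With 1 array left out, Col3a1 (-1.09) ran from -1.89 to -0.39, both ends on leaving out KO arrays (KO 1 and KO 2). Alx1 (-0.86) ran from -1.66 without WT 2 to -0.36 without WT 3. Pmel (-1.36) ran from -2.57 without KO 1 to -0.65 without WT 1. Tbx5 (-1.08) ran from -2.08 without WT 2 to -0.48 without WT 1, and its other tested probe gave -0.33. Six3 (-0.66) ran from -0.99 without WT 1 to -0.12 without KO 1, and its other tested probe gave -1.16. Sox2 (0.44) ran from -0.078 without WT 1 to 0.90 without KO 1, and its other tested probe gave 0.33.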
